A study of Rattus norvegicus with 2 samples.

Results

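Argininosuccinate synthase, inducible nitric oxide synthase and a set of amino acid stress and amino acid breakdown genes were followed in rat bone marrow mesenchymal stem cells (bmMSCs), with and without introduced pancreatic transcription factors. The 7 genes are Ass1, Nos2, Asns, Chac1, Trib3, Aldh1l2 and Aass, all present once among the 2325 rows of the deposited table. They were selected on the measured difference between the libraries, since the table itself lists only genes that the authors called changed, and these 7 were picked from it by symbol. Their differences are therefore descriptions, and no test is attached to them. Both cultures were of the Sprague-Dawley strain at passages 3 to 5, and bmMSCs are the marrow stromal cells that grow attached to plastic. The control was an untransfected culture (NC). The other culture had been transfected with Pdx1 and Ngn3 (Neurog3), transcription factors of pancreas and endocrine development, and was collected 10 days later. Each group had 1 library.

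Arginine is the substrate from which nitric oxide synthases release nitric oxide and citrulline. Argininosuccinate synthase, with argininosuccinate lyase, turns that citrulline back into arginine, and both enzymes are also steps of the urea cycle in liver. When amino acids are scarce or proteins fail to fold, kinases that phosphorylate the initiation factor eIF2-alpha favour translation of the transcription factor ATF4, which acts with C/EBP partners on genes for amino acid synthesis, import and stress feedback. Asns, Chac1, Trib3 and Aldh1l2 are known targets of this amino acid response, whereas Aass starts the breakdown of lysine.

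The libraries held 7800831 reads (untransfected) and 7415094 reads (transfected), as implied by counts, lengths and RPKM (reads per kilobase of gene length, scaled to library size). Pdx1, whose reads cannot be divided between the introduced and the resident gene, had 0 and 565 reads, in the direction of the labels. Among surface markers of bmMSCs, Thy1 stood at 1101 and 322 RPKM, Itgb1 at 1057 and 519 RPKM, Pdgfra at 25.1 and 64.7 RPKM, and Cspg4 at 91.3 and 3.93 RPKM, so the levels of these markers differed between the cultures. Calls of higher or lower needed a ratio of scaled reads of at least 2 with an exact 95% interval that excluded 1. By that rule 63.5% of the listed genes were higher and 36.5% lower in transfected cells. No listed gene failed the rule, because the authors had already kept only genes past a 2-fold limit. A call, or intervals that do not overlap, therefore adds little to a gene's being listed. Of 17 stromal markers 8 were in the table, 3 higher and 5 lower, and the other 9 were not analysed here. Of the 7 genes, 2 were higher and 5 lower, and nothing is read from that split, since the genes were chosen by these same differences. All intervals cover counting error only, and with 1 library a group no spread between cultures could be estimated. The control also lacked the transfection procedure, and the labels give no day of collection for it. Effects of the procedure, of time in culture and of the introduced genes therefore cannot be told apart. Nor can fewer cells making an RNA be told apart from less RNA in each cell.

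**Figure D1:**
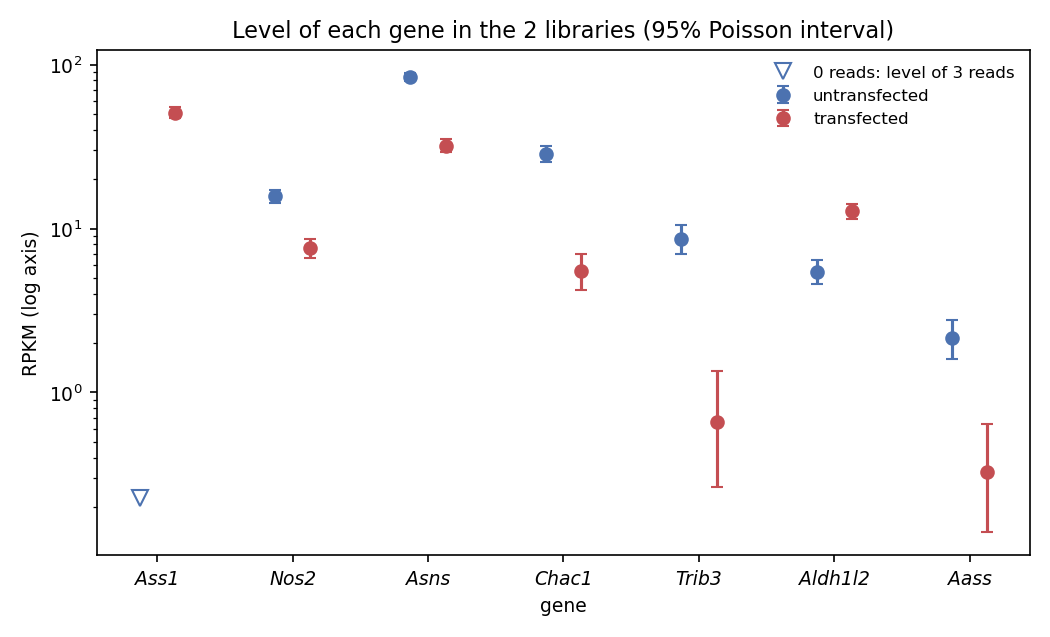
Level of each of the 7 genes in the untransfected (blue) and transfected (red) library, in RPKM on a log axis. Points are single libraries with exact 95% Poisson intervals, and the open triangle marks Ass1 at 0 reads, drawn at the level of 3 reads (0.227 RPKM). Ass1 and Aldh1l2 are higher in transfected cells, the other genes are lower, and the intervals of the libraries overlap for none of the 7.

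Asns, Chac1 and Trib3 were lower together, so the 250 bases before their start sites are shown here, from RefSeq on the GRCr8 assembly. ATF4 and its C/EBP partners bind a composite element whose core was searched as TGATGNAA, on both strands and with no other motif. Capitals mark a match. The window of Chac1 lies at chr3:126795881-126796130, plus strand, that of Trib3 at chr3:161275534-161275783, minus strand, and that of Asns at chr4:36769416-36769665, minus strand. All are printed 5′ to 3′ in the direction of the gene.
Chac1: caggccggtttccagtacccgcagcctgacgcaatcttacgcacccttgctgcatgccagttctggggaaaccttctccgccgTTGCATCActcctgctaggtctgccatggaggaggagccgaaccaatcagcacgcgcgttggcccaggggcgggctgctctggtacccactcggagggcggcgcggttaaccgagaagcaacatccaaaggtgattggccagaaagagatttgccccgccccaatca
Trib3: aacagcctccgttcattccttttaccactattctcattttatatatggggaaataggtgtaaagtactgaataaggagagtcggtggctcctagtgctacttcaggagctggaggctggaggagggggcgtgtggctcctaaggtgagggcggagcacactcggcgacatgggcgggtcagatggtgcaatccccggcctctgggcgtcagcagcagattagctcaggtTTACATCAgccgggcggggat
Asns: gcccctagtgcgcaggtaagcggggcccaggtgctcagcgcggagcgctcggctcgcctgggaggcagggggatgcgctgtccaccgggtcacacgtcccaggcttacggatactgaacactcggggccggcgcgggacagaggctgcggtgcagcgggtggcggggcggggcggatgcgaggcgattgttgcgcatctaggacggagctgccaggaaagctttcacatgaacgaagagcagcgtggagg
Chac1 had 1 match, TTGCATCA, ending 159 bases before the start site. Trib3 had 1 match, TTACATCA, ending 13 bases before it. Both read on the opposite strand. These letters are not in the windows of Asns, Ass1 and Aass, and Nos2 and Aldh1l2 had no entry. Only the 250 bases before annotated start sites were searched, so an element elsewhere at these genes would not be seen. Of 33469 windows of this length in the RefSeq table, 3.40% held the motif. Counted by gene, the motif was in 3.58% of 27457 genes with a window. Among listed genes with a window, the share by gene was 2.90% of 792 higher and 3.04% of 494 lower genes.

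Ass1 differed most of the 7. It had 0 reads in untransfected cells and 638 reads, or 50.8 RPKM (interval 46.9 to 54.9), in transfected cells. The control library was empty for this gene, and a count of 0 allows up to 3 reads, or 0.227 RPKM. Set against those 3 reads, Ass1 was at least 224-fold higher. Those 3 reads are a one-sided limit, and the two-sided exact interval, which allows more reads in the control, begins lower, at 181-fold. Of the 1476 higher genes, it ranked number 6 by fold and number 4 by the lower end of the interval. It was 1 of 109 listed genes with no untransfected reads. In the transfected library Ass1 lay at percentile 85.8 of the listed genes' RPKM. RefSeq names 2 Ass1 pseudogenes (Ass1-ps1 and Ass1-ps2), and the sources used here do not say how reads shared with them were assigned, so the count of Ass1 is uncertain to that extent. The authors' deposited table gives Ass1 a log2 ratio of 15.63, because 0 reads were entered there as 0.001 RPKM.

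Nos2, the inducible enzyme that consumes arginine to make nitric oxide, moved in the opposite direction. It had 485 reads (15.8 RPKM, interval 14.4 to 17.2) in untransfected and 222 reads (7.59 RPKM, 6.63 to 8.66) in transfected cells. The control was the higher library, and the intervals did not overlap. The ratio was 2.08-fold lower (1.77 to 2.45), which places Nos2 at number 796 of 849 lower genes by fold. It was the nearest of the 7 to the 2-fold edge of the table, and with ratios scaled by the sums of the count columns or taken as log2(RPKM + 1) its log2 ratios were -0.95 and -0.96, short of that limit. Genes just outside the limit are not in the table and were not analysed here. In the deposited annotation, arginine metabolic process is attached to 2 rows of the whole table, Ass1 and Nos2. The urea metabolic process is attached to Ass1 and Arg1.

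Other genes of arginine handling were mixed. From a list of 35 genes for the urea cycle, nitric oxide, polyamines, creatine and arginine uptake, 8 were in the table, 3 higher and 5 lower, with a median log2 ratio of -1.07 against 1.24 over all listed genes. Apart from Ass1 and Nos2, that leaves 2 higher and 4 lower. Srm, spermidine synthase, was the higher of these by level, with 506 and 1029 reads (49.1 and 105 RPKM, 2.14-fold higher, interval 1.92 to 2.38). Gamt, which makes creatine from an arginine-derived precursor, had 4 and 33 reads (8.68-fold higher, 3.09 to 33.7). Lower genes were spread over uptake, breakdown and polyamines. Slc7a1, the cationic amino acid transporter that imports arginine, had 499 and 224 reads (9.89 and 4.67 RPKM). Arg1, arginase 1, which splits arginine into ornithine and urea, had 111 and 40 reads (2.64-fold lower, 1.82 to 3.89). Azin1, an antizyme inhibitor that protects ornithine decarboxylase, had 1683 and 666 reads (50.5 and 21.0 RPKM). Sms, spermine synthase, had 106 and 24 reads and was 4.20-fold lower (2.68 to 6.84). With library totals the synthases for spermidine and spermine thus stood on opposite sides. That contrast depends on scaling, since median-of-ratios factors move every log2 ratio by -1.2 and that of Srm was 1.10. The higher count of 3 fell to 2 with TMM and with median-of-ratios factors. The lower count of 5 fell to 3 with column sums and with log2(RPKM + 1), to 2 when the whole interval had to lie beyond 2-fold, and to 1 when a biological coefficient of variation of 0.4 was assumed between cultures.

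Nos2 is known to be induced by inflammatory signals. From 20 genes for cytokines, Toll-like receptors, NF-kappa-B and interferon signalling, 5 were in the table and 5 were higher, beside 63.5% over all rows, with a median log2 ratio of 1.77 against 1.24. The rest were not analysed here. The list is not exhaustive, and related genes outside it went both ways. Tlr5 (log2 ratio -2.12) and Map3k14 (-1.24) were lower, while Il6 (3.52) and Ikbke (1.21) were higher. Nfkb1, a subunit of NF-kappa-B, had 346 and 835 reads (12.3 and 31.3 RPKM). Relb, another subunit, matched by gene identifier to a row with a provisional symbol, had 70 and 159 reads. Il1b, the cytokine interleukin 1 beta, had 6 and 34 reads. Tlr2, a receptor for bacterial lipoproteins, had 191 and 621 reads (3.42-fold higher, 2.90 to 4.04), and Socs3, a feedback inhibitor of cytokine signalling, had 7 and 70. Under TMM or median-of-ratios scaling, 2 genes of this list were called higher. Macrophages can also express Nos2. Of 20 macrophage and class II markers, 3 were in the table and none of these 3 was at 0 in either library. Their summed level was 12.4 RPKM in the control and 3.45 RPKM after transfection. Cd74 had 96 and 5 reads and RT1-Db1 had 32 and 1, while Cd68 had 5 and 26. The part of such cells in the Nos2 difference was not tested. Among 12 endothelial markers Egfl7 was in the table, with 78 and 22 reads.

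**Figure D2:**
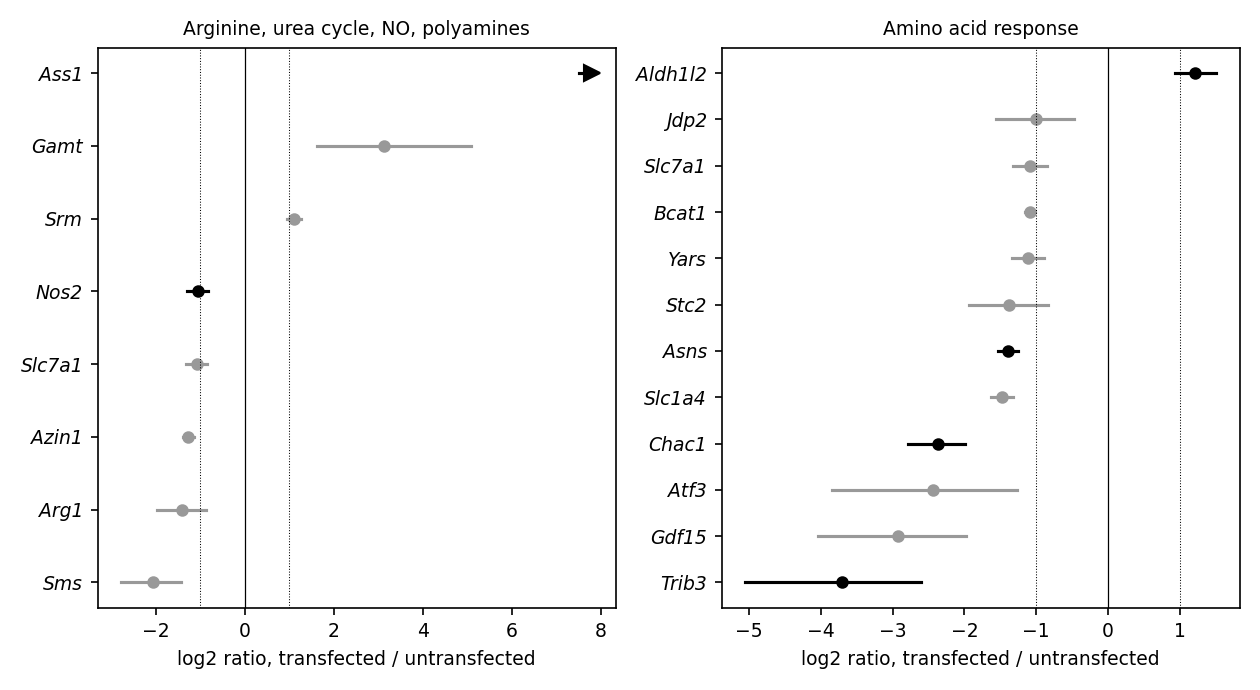
Log2 ratio of transfected over untransfected reads for the listed genes of arginine handling (left, 8 genes) and of the amino acid response (right, 12 genes). Black marks those of the 7 genes that are on these lists, and grey the others. Aass is on neither list and is not drawn. Bars are exact 95% intervals from counting error, dotted lines mark a 2-fold difference, the arrowhead marks the lower bound of Ass1, and the panels have different horizontal scales. On the right Aldh1l2 is the single gene above 0.

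Of the amino acid response genes that the table lists, 11 of 12 were lower in transfected cells, with Aldh1l2 as the exception, beside 36.5% lower over all rows. Asns, asparagine synthetase, makes asparagine from aspartate and glutamine. It had 1461 reads (84.1 RPKM, interval 79.9 to 88.6) in untransfected and 529 reads (32.0 RPKM, 29.4 to 34.9) in transfected cells. This was the highest level of any of the 7 genes in the control, at percentile 93.1 of the listed genes, and the intervals were far apart. The ratio was 2.63-fold lower (2.38 to 2.91), number 538 of 849 lower genes.

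Chac1, a gamma-glutamylcyclotransferase that breaks down glutathione, had 349 reads (28.5 RPKM, 25.6 to 31.7) in untransfected and 64 reads (5.50 RPKM, 4.24 to 7.02) in transfected cells. The transfected level lay well under the control interval, at 5.18-fold lower (3.96 to 6.88). Trib3, a pseudokinase that feeds back on ATF4 and binds the kinase AKT, had 96 reads (8.59 RPKM, 6.96 to 10.5) and 7 reads (0.659 RPKM, 0.265 to 1.36). It was nearly absent from the transfected library. Its ratio, 13.0-fold lower (6.09 to 33.3), was the largest decrease of the 7 and number 61 of 849, but 7 reads leave a wide interval that overlaps those of Chac1 and Aass. The ratio intervals of both Trib3 and Chac1 lay beyond that of Asns. Trib2, a related pseudokinase named after its values were seen, was also listed, with 103 and 20 reads (4.90-fold lower, 3.01 to 8.35).

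These 12 come from a list of 58 genes of the amino acid response, and those outside the table were not analysed here. The median log2 ratio of the 12 was -1.38, against 1.24 over all listed genes. Without the 4 members among them, the other 8 were all lower, at a median of -1.24. Such a list holds known targets and its direction was partly known when it was drawn up, so the count is a description. Bcat1, the cytosolic branched-chain aminotransferase, had 5108 and 2289 reads (263 and 124 RPKM). Slc1a4, a neutral amino acid transporter, had 1342 and 460 reads (2.77-fold lower, 2.49 to 3.09). Yars, tyrosyl-tRNA synthetase, had 563 and 247 reads and was the single aminoacyl-tRNA synthetase listed of 21. Low-level stress genes gave wider intervals. Gdf15, a stress-induced hormone, had 80 and 10 reads (7.60-fold lower, 3.93 to 16.5). Atf3, a stress-induced transcription factor, had 40 and 7 reads (5.43-fold lower, 2.41 to 14.4). Stc2, stanniocalcin 2, had 109 and 40 reads, and Jdp2, a repressor related to AP-1, had 93 and 44. The 11 lower genes became 8 with column sums and 9 with log2(RPKM + 1) or with at least 100 reads required. They became 7 when the whole interval had to pass 2-fold and 4 with that assumed variation. None of 20 chaperones and sensors of the unfolded protein response in the endoplasmic reticulum, such as Hspa5, was in the table, so that branch was not analysed here.

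Among the 10 listed amino acid response genes with a RefSeq window, 5 held the ATF4 core motif, beside 3.58% of all genes with a window. The list holds known targets of this response, so a raised share can follow from how it was drawn up. All 10 were lower in transfected cells, so direction could not be compared between genes with and without the motif. Aldh1l2, the higher gene of the list, had no window. The motif was also held by 9 of 40 genes of that list outside the table (22.5%). Besides Chac1 and Trib3, the listed genes with the motif were Slc1a4 (chr14:98761774-98761812, minus strand), Slc7a1 (chr12:11664442-11664481, plus strand) and Jdp2 (chr6:110993559-110993590, plus strand). They are printed here with up to 16 flanking bases on either side and the match in capitals, GRCr8, 5′ to 3′ along the gene.
Slc1a4: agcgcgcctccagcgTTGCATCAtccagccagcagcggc
Slc7a1: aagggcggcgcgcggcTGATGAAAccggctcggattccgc
Jdp2: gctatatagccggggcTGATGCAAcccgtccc
The Slc1a4 match has the same 8 letters as that of Chac1. A match is a description of the letters and not a measured binding site.

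Aldh1l2, the mitochondrial enzyme that oxidises 10-formyltetrahydrofolate and makes NADPH, went against the other amino acid response genes. It had 149 reads (5.45 RPKM, 4.61 to 6.40) in untransfected and 330 reads (12.7 RPKM, 11.4 to 14.2) in transfected cells. The transfected library was the higher, with separate intervals, at 2.33-fold (1.91 to 2.85), number 1186 of 1476 higher genes. This call depended on scaling: its log2 ratio of 1.22 became 0.44 with TMM factors and 0.019 with median-of-ratios factors. Aldh1l1, its cytosolic relative, had 10 and 42 reads (4.42-fold higher, 2.18 to 9.88). These were the 2 rows annotated with 10-formyltetrahydrofolate metabolic process. From 30 genes of folate and one-carbon metabolism, 4 were in the table. Of these, Aldh1l2, Aldh1l1 and Gldc were higher, beside 63.5% over all rows. The higher count of 3 became 2 with TMM factors and 1 with median-of-ratios factors. Gldc, the glycine decarboxylase that feeds one-carbon units to folate in mitochondria, had 18 and 219 reads (12.8-fold higher, 7.91 to 22.0).

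Aass, the bifunctional mitochondrial enzyme of the saccharopine route of lysine breakdown, had 55 reads (2.14 RPKM, 1.61 to 2.78) in untransfected and 8 reads (0.327 RPKM, 0.141 to 0.644) in transfected cells. It was low in both libraries, at percentile 26.1 and 2.97 of the listed genes, yet the intervals did not meet. The ratio was 6.54-fold lower (3.09 to 15.9). The deposited annotation attaches lysine catabolic process to this row alone. From 16 genes of lysine breakdown and lysine modification in collagen, 4 were in the table. Of these 3 were higher and 1, Aass, was lower, beside 63.5% and 36.5% over all rows. With median-of-ratios factors 1 was called higher. Crym, mu-crystallin, a ketimine reductase, had 11 and 86 reads (8.22-fold higher, 4.37 to 17.1). Echs1, a mitochondrial enoyl-CoA hydratase, had 89 and 219 reads. Lox, lysyl oxidase, which acts on lysines of collagen and elastin outside the cell and not on free lysine, had 2365 and 8634 reads (66.5 and 256 RPKM).

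Enzymes next to Asns and Chac1 were split. From 27 genes of aspartate, glutamate and proline metabolism, 5 were in the table, 2 higher and 3 lower, beside 63.5% and 36.5% over all rows. Neither was called higher with TMM or median-of-ratios factors. Asrgl1, an asparaginase that runs opposite to Asns, had 108 and 267 reads (2.60-fold higher, 2.07 to 3.28). Gls2, a glutaminase, had 301 and 59 reads (4.85-fold lower, 3.66 to 6.52). Slc25a13, the mitochondrial carrier that exports aspartate, a substrate of both Ass1 and Asns, had 240 and 53 reads (4.30-fold lower, 3.19 to 5.91). Pycrl, a pyrroline-5-carboxylate reductase, had 70 and 160 reads. Of 15 genes of glutathione synthesis and breakdown, Chac1, Ggt5 and Ggt7 were listed. Ggt5, a gamma-glutamyl transferase, had 89 and 27 reads, and its relative Ggt7 had 41 and 95. From 31 amino acid transporters 5 were listed, 2 higher and 3 lower, beside 63.5% and 36.5% over all rows. With TMM and median-of-ratios factors the higher count was 1 and 0. Slc38a1, a glutamine transporter, had 455 and 102 reads (4.24-fold lower, 3.41 to 5.31). Slc7a6 had 168 and 558 reads and Slc43a2 had 355 and 923.

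The order of the 7 genes by level changed between the cultures. Per length, untransfected cells had Asns first, then Chac1, Nos2, Trib3, Aldh1l2, Aass and Ass1, each separated from its neighbour by non-overlapping intervals. In transfected cells Ass1 came first at 50.8 RPKM, followed by Asns, Aldh1l2, Nos2, Chac1, Trib3 and Aass. There the intervals of Nos2 and Chac1 overlapped, as did those of Trib3 and Aass. Summed over the 7 genes, the level was 145 RPKM in the control, most of it from Asns, and 109.6 RPKM after transfection, with Ass1 as the first contributor.

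**Figure D3:**
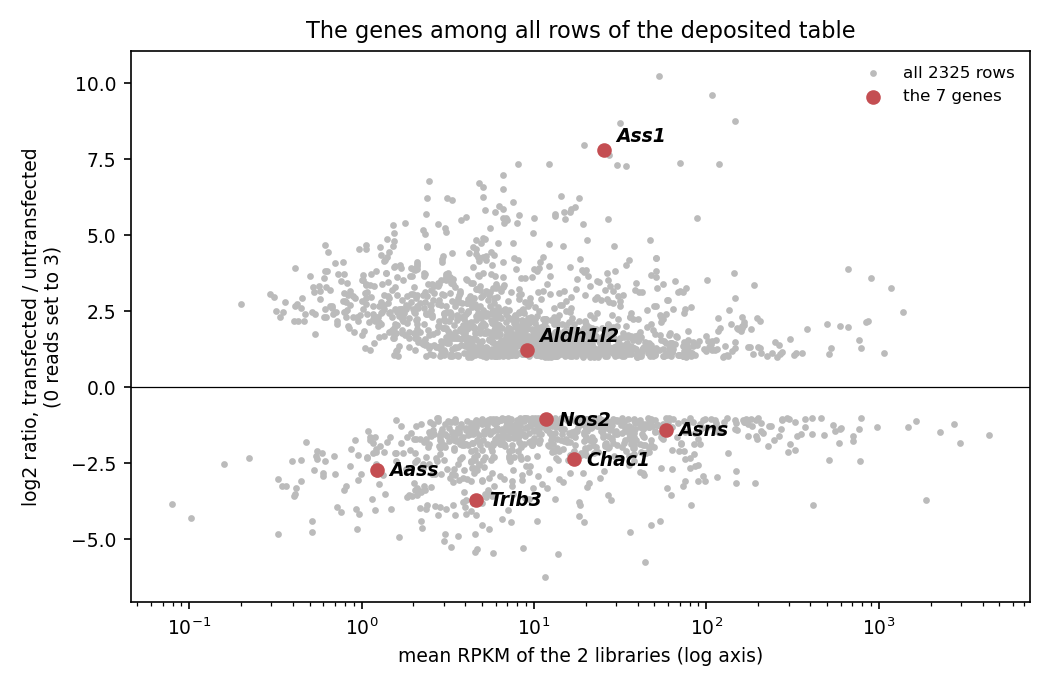
Log2 ratio of transfected over untransfected reads against the mean RPKM of both libraries (log axis) for all 2325 rows of the deposited table (grey) and the 7 genes (red), with 0 reads set to 3. The band without points around 0 is the authors' 2-fold limit. Ass1 lies near the top at 7.81 and Trib3 at -3.70, while Nos2 and Aldh1l2 lie near the inner edges.

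For each gene the nearest rows by level in both libraries were listed, as the distance between log2 RPKM values over the 2 libraries. With only 2 points a gene, such likeness says little. The row nearest to Ass1 was Pdx1 itself (0 and 565 reads, distance 0.289). Next came Ace, angiotensin-converting enzyme, with 5 and 1960 reads (0.654). Asns lay next to Loxl3, a lysyl oxidase relative (distance 0.0448), and Chac1 next to Pdgfa, a platelet-derived growth factor chain (0.113). The nearest row to Trib3 was Dhrs9 (0.119), to Nos2 Zfp827 (0.0416), to Aldh1l2 Mcm4 (0.0108) and to Aass Pgr (0.137). On GRCr8, no protein-coding gene overlaps any of the 7, while a small nucleolar RNA overlaps Ass1 and a long non-coding RNA overlaps Nos2, whose reads could not be kept apart without strand. No directly neighbouring protein-coding gene of any of the 7 was in the table.

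**Figure D4:**
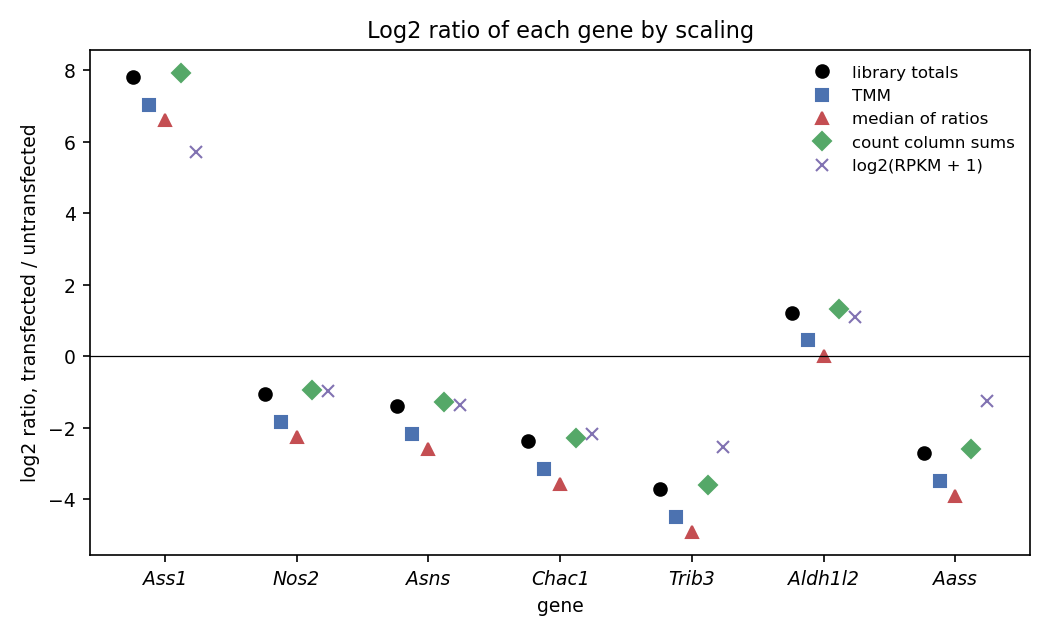
Log2 ratio of transfected over untransfected reads of the 7 genes under 5 ways of scaling, with 1 symbol for each. Signs are the same under all 5, and Aldh1l2 falls to 0.019 with median-of-ratios factors.

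Scaling set the size of each ratio, and no value changed sign. For Aldh1l2, at 0.019 with median-of-ratios factors, no direction can be read under that scaling. TMM factors moved every log2 ratio by -0.78 and median-of-ratios factors by -1.20, both computed on genes already selected for change. With these factors the higher genes made up 46.4% and 37.6% of calls, against 63.5% with library totals. Relative to these shifts the order of the 7 genes is the same by construction. Ass1 was the single gene of the 7 called higher under both. Both shifts are downward, so lower calls could not be lost under them.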

How the data were processed

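RNA-seq libraries of untransfected and of Pdx1 and Ngn3 transfected rat bmMSCs were compared. Per the labels' protocols, RNA was isolated with trizol, mRNA was captured on oligo(dT) beads, and random-primed cDNA was amplified and sequenced on an Illumina GA instrument. Genome build rn4 comes from the submitters' processing notes. The sources used here do not give the aligner or the counting tool. Per the file headers, the authors deposited whole read counts, RPKM computed with gene length, a log2 ratio of the RPKM values, and a p-value and false discovery rate for each gene. No deposited row has a log2 ratio under 1.00 in size or a false discovery rate above 0.000996. These p-values compare 1 library with another and were not used.

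Counts were divided by the library totals that counts, lengths and RPKM imply (1 row differed in the untransfected library). Ratios carry exact 95% Clopper-Pearson intervals, and levels carry exact Poisson intervals. Where a count was 0, 3 reads stood in for it. Reads were amplified without molecular identifiers, so intervals cover counting error only. No test across replicates was possible, and no p-value is given. Scaling alternatives used edgeR 4.0.16 (TMM) and DESeq2 1.42.0 (median of ratios), with scipy 1.17.1 and R 4.3.3 elsewhere, and the interval code was tested on simulated data. Motifs were searched in RefSeq windows.

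The members and the 14 lists were chosen with earlier results of these data known. One gene the rule names is not reported here. The rule named the 7 genes, Pdx1, every listed gene of lists with at most 5 in the table, the 4 with the highest mean RPKM of longer lists, and the 2 rows nearest to each of the 7, of which the nearest is given and, for Ass1, both are. Slc7a1 was named through the transporter list. Gamt, Arg1, Sms, Gdf15, Atf3, Stc2, Jdp2, Trib2, Tlr5, Map3k14, Il6 and Ikbke were named after their values were seen.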

Additional observations from a re-analysis of the deposited data

How the results depend on the processing

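Every sign of the 7 log2 ratios held under the alternatives run, that of Aldh1l2 barely, but most of these alternatives could not reverse one. The TMM and median-of-ratios shifts are downward, so the 5 lower genes stay lower under them, and log2(RPKM + 1) cannot change a sign. Of 29 alternative values, 16 stayed inside the counting interval. With TMM factors the log2 ratios were 7.03 for Ass1, -1.83 for Nos2, -2.17 for Asns, -3.15 for Chac1 and 0.44 for Aldh1l2, and with median-of-ratios factors 6.60, -2.26, -2.59, -3.58 and 0.019 for the same genes, through the uniform shift of each scaling. As log2(RPKM + 1) they were 5.69 for Ass1, -2.53 for Trib3 and -1.24 for Aass, where the added 1 weighs on low levels. The count of 2 higher genes became 1 (Ass1) with TMM, with median-of-ratios factors, when the whole interval had to pass 2-fold, and when a biological coefficient of variation of 0.4 was assumed, an alternative added after seeing the data. That last setting left 3 of the 5 lower genes (Chac1, Trib3 and Aass). In the arginine list the 5 lower genes became 3 with column sums, 3 with log2(RPKM + 1), 2 with the whole interval beyond 2-fold and 1 with the assumed variation. In the amino acid response list the 1 higher gene became 0 with TMM, median-of-ratios, the stricter interval and the assumed variation. The 11 lower genes became 7 and 4 under the last pair of these. They became 8 with column sums and 9 with log2(RPKM + 1) or with at least 100 reads required. Over the lists with at least 3 genes in the table, cell markers left out, 86 of 126 alternative counts stayed within 1.5 times. These include the lower count of the inflammatory list, which was 0 under every setting. Over the whole table, calls numbered 734 higher and 849 lower with TMM, 512 and 849 with median-of-ratios factors, 970 and 552 with the stricter interval, and 780 and 400 with the assumed variation, against 1476 and 849. Requiring 100 reads removed Aass (63 reads) from the calls. Depth limits Trib3 and Aass most, at 7 and 8 transfected reads. No paired analysis was possible because each group has 1 library.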

Other observations

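Breakdown of sulphur and branched-chain amino acids was not part of the comparison above. From 31 genes of branched-chain, aromatic and sulphur amino acid breakdown, 5 were in the table, 4 higher and 1 lower in transfected cells, beside 63.5% higher over all listed genes. Cdo1, cysteine dioxygenase, which commits cysteine to taurine and sulphate, had 88 and 1084 reads (6.87 and 89.0 RPKM) and was 13.0-fold higher (interval 10.4 to 16.3). Csad, the decarboxylase that follows it towards taurine, had 50 and 109 reads (2.29-fold higher, 1.63 to 3.27). Hibadh, of valine breakdown, had 460 and 1191 reads, and Bckdha, a subunit of the branched-chain keto acid dehydrogenase, had 106 and 203 (2.01-fold higher, 1.59 to 2.57). Bcat1, the aminotransferase ahead of that dehydrogenase, was the lower member. Under TMM and median-of-ratios factors 1 gene of the list was called higher.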
